A study of Homo sapiens with 372 samples.

Results

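A set of 10 genes of ribosome assembly in the nucleolus was followed through the drug response of A2780 cells: NCL, NPM1, FBL, NOP56, NOP58, DKC1, NOLC1, NOP16, GNL3 and RRS1. They were taken by symbol from the table of expression values and make up 10 of its 9664 genes. A2780 is an established human ovarian endometrioid carcinoma line. Single cells were captured on the Fluidigm C1 microfluidic system and turned into full-length cDNA libraries of polyA-tailed RNA by Smart-seq2, with 3 artificial spike-in RNAs in every well as a yardstick of RNA amount. The 6 conditions were untreated control (46 cells), paclitaxel at 5 nM for 16 h (56 cells) and 48 h (53 cells), celecoxib at 75 µM for 2 h (63 cells) and 16 h (61 cells), and both drugs at these doses for 16 h (59 cells). Paclitaxel stabilizes microtubules, and celecoxib inhibits cyclooxygenase.

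The nucleolus transcribes ribosomal RNA, trims and modifies the precursor, and builds it with ribosomal proteins into the small and large subunits. Small nucleolar RNAs (snoRNAs) guide the modifications: box C/D snoRNAs guide 2′-O-methylation by the enzyme FBL, held by the scaffold proteins NOP56 and NOP58, and box H/ACA snoRNAs guide pseudouridylation by DKC1. NOLC1 chaperones these particles, NCL and NPM1 are abundant nucleolar proteins of pre-rRNA handling and subunit assembly and export, and NOP16, GNL3 and RRS1 act in large-subunit assembly. Many of these genes are known targets of the transcription factor MYC, and proliferating tumour cells make much of their products.

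Several of these genes carry snoRNA genes inside their own introns, so that 1 precursor transcript yields both a protein and its RNA partners. On hg38, GENCODE version 44 places 6 snoRNA genes in introns of GNL3, 5 in NOP56, 4 in NOP58, 3 in NCL and 2 in DKC1, and none in introns of the other members. Thus 50% of the members hosted at least 1 snoRNA gene, beside 2.09% of the 9632 listed genes that matched the annotation. In GNL3 an entry without a symbol at chr3:52688882-52688961 overlaps another at chr3:52688890-52688962, so its 6 entries are not all separate loci. The following snoRNAs, 1 from each of 4 hosts, are shown because they belong to the classes that the members' proteins bind. Capitals mark the C box (TGATGA) and the D box (CTGA), or the closing ACA of a box H/ACA snoRNA, and all are read 5′ to 3′ from the host's strand. SNORD57 lies in an intron of NOP56 at chr20:2656939-2657010 on the plus strand, SNORD11 in an intron of NOP58 at chr2:202293051-202293134 on the plus strand, SNORD20 in an intron of NCL at chr2:231456444-231456523 on the minus strand, and SNORA56 in an intron of DKC1 at chrX:154774998-154775126 on the plus strand.
SNORD57: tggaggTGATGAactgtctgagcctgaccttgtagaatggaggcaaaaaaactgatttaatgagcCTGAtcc
SNORD11: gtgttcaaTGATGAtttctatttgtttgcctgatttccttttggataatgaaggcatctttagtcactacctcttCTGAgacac
SNORD20: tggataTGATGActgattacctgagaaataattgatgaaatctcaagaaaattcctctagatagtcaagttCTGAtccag
SNORA56: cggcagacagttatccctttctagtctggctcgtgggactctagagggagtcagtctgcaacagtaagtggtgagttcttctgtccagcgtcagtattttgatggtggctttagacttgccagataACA
The values below are per gene, from libraries of polyA-tailed RNA, and spliced host transcripts were not separated from other forms. The snoRNAs themselves were not analysed here.

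The promoters were compared with 5 short motifs. RefSeq (GRCh38.p14) gave promoter stretches, 250 bases before to 50 bases after the start site, for 7 of the 10 members. NOP58, NOLC1 and RRS1 had no entry. Both strands were searched, and each share is over 35116 promoters of the same length. The E-box CACGTG, the core that MYC is known to bind, was found in 2 of these 7 members, GNL3 and FBL, and in 7.26% of all promoters. In both members it began at base 7 of the transcript. The ETS core CCGGAAG was found in NOP16 and FBL and in 10.3% of all promoters, and in NOP16 it was read on both strands at overlapping positions. The CCAAT box was found in 4 members (NCL, NPM1, FBL and NOP56) and in 34.6% of all promoters, the GC box GGGCGG in 6 members and in 45.0%, and TATAAA in none of the 7 and in 11.5%. Windows of 30 bases around 4 matches are given because GNL3, FBL and NOP16, described below, carry them, with the motif in capitals. They lie at chr3:52686026-52686055 on the plus strand (GNL3), chr19:39846356-39846385 and chr19:39846555-39846584 on the minus strand (FBL), and chr5:176388597-176388626 on the minus strand (NOP16).
GNL3 E-box: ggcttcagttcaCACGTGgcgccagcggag
FBL E-box: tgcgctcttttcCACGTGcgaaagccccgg
FBL ETS: gggaagaggaaaCCGGAAGcgagtttaggg
NOP16 ETS: tgtgcacgccttCCGGAAGgagtttgttac
A match is a run of letters and says nothing of binding in these cells.

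Values were deposited as E = log2(N/10 + 1). Here N stands for the TPM of a gene (its length-corrected share of the cell's reads) after scaling to the most abundant spike-in RNA of the same cell. The labels name no replicate cultures, and every condition went through 1 C1 capture. A condition is therefore 1 sample, and condition and capture cannot be told apart. No test between conditions was made, and every SD is a spread over cells. Reads per cell are unknown. The median number of genes detected lay between 6126 and 6630 per condition, and single cells had between 4746 and 8499. The summed N of the median cell, as a log2 difference from control, stood at -0.99 and -0.64 at 16 and 48 h of paclitaxel, at -0.76 and -1.52 at 2 and 16 h of celecoxib, and at 0.49 with both drugs. Each difference is therefore given on the deposited scale and after bringing every cell to an equal summed N, a step that takes out the spike-in scaling and is called "at the same total" below. Of the 8 markers chosen for the line and for other cell types, KRT18 (detected in 23.9 to 36.5% of the cells of a condition) and VIM (62.5 to 86.8%) were listed. The line markers KRT8, EPCAM and PAX8 were not among the listed genes and could not be analysed. The same holds for PTPRC, PECAM1 and COL1A1, markers of other cell types.

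The members spanned a wide range of levels in control cells. TPM is per transcript length, so that levels can be set beside each other. NPM1, a histone and ribosome chaperone, stood at a mean N of 3385 ± 1547 (SD over 46 cells) and ranked 53 from the top of 9664 genes. NOP16 followed at 847 ± 584 and NCL at 756 ± 371, then NOP58 at 470 ± 256, NOP56 at 433 ± 274, GNL3 at 300.2 ± 167, FBL at 274 ± 171, DKC1 at 213 ± 154 and NOLC1 at 153 ± 106. From NOP16 to NOLC1, neighbours in this order lay closer to each other than the larger of their SDs over cells. RRS1, an essential factor that brings the 5S particle to the pre-60S subunit, stood far below at 5.76 ± 11.6 and ranked 8226. NCL and NPM1 were detected in all 338 cells, and NOP58, GNL3, NOP56, NOLC1, FBL, NOP16 and DKC1 in 89.3% (DKC1) to 99.4% (NOP58) of them. RRS1 was detected in 46.7%, from 39.0% with both drugs to 62.3% at 16 h of celecoxib, and its median E-value was 0 in 5 of the 6 conditions. All 10 members passed the 30% detection limit, as did 9655 of the 9664 genes.

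**Figure D1:**
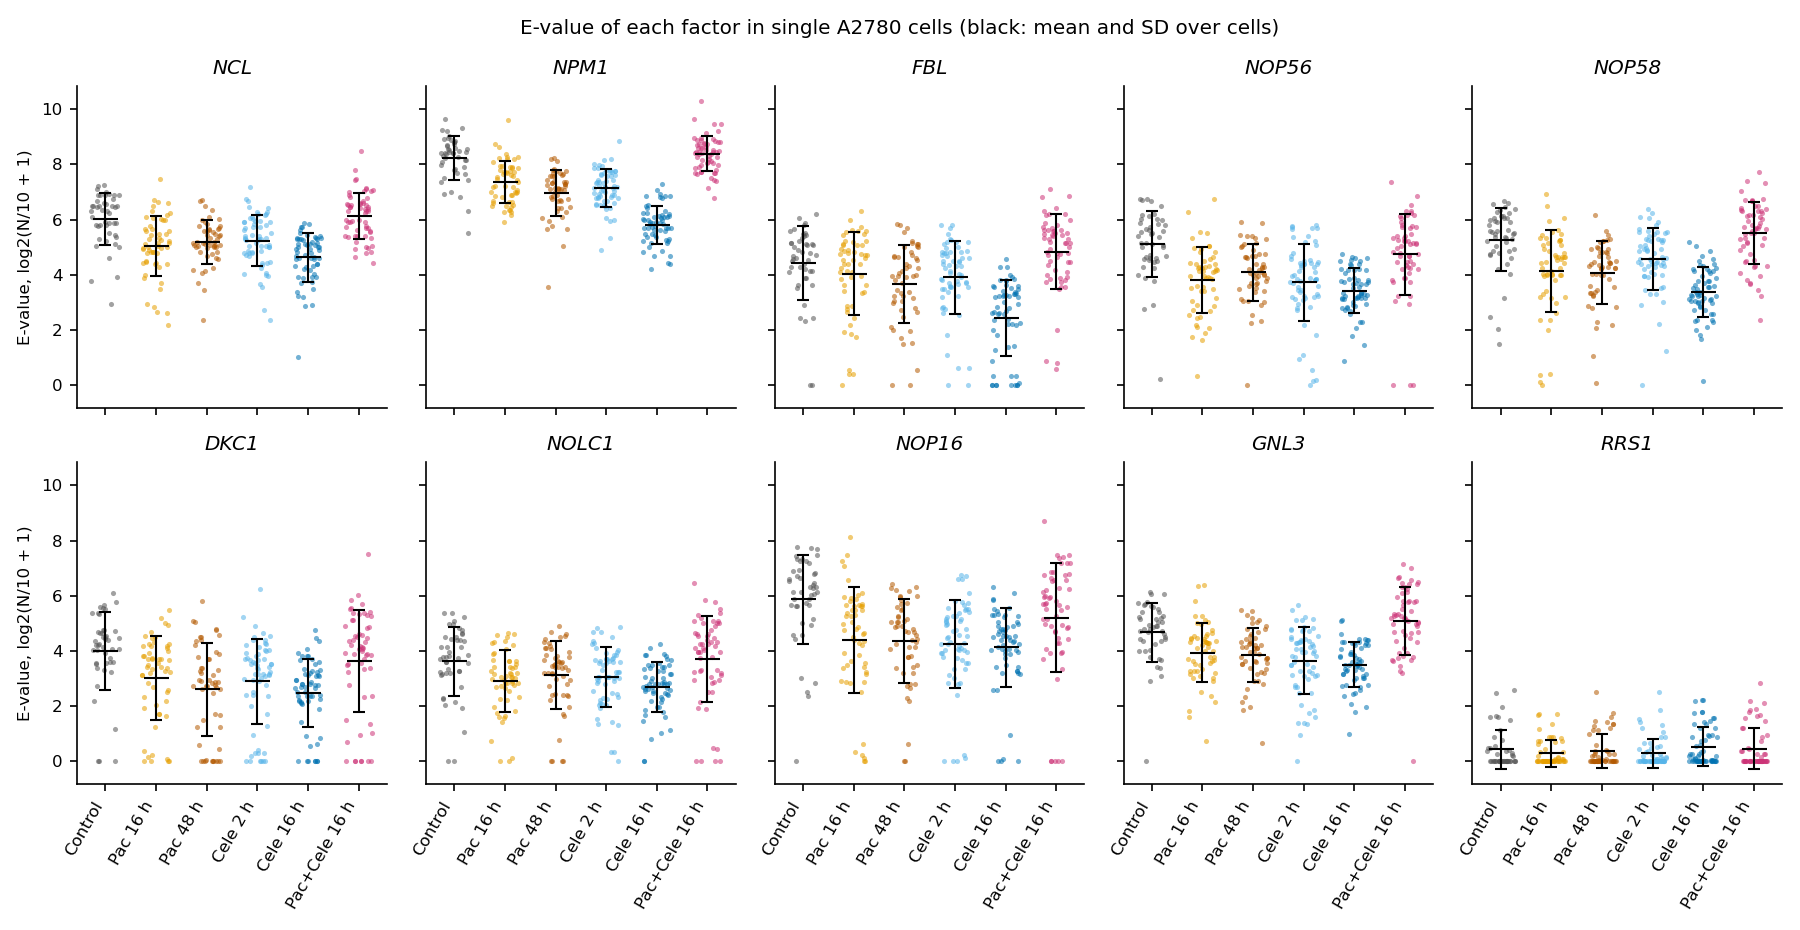
E-value (log2(N/10 + 1), vertical axis) of the 10 members in single A2780 cells of the 6 conditions (Pac, paclitaxel; Cele, celecoxib). Each point is 1 cell, and black bars give the mean and SD over cells. NPM1 runs from a mean of 8.23 in control cells to 5.81 at 16 h of celecoxib, the combination lies at 8.39, and RRS1 stays between 0.29 and 0.54.

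The box C/D proteins had lower mean levels under each drug alone, lowest at 16 h of celecoxib. The methyltransferase FBL (ENSG00000105202, chr19:39834458-39846379) had a median E-value of 4.70 in control cells (lowest 0, highest 6.22), 4.46 (0 to 6.29) at 16 h and 3.97 (0 to 5.83) at 48 h of paclitaxel, and 4.13 (0 to 5.82) at 2 h of celecoxib. At 16 h of celecoxib it was 2.81 (0 to 4.56), with all 61 cells below the control median, and with both drugs 5.14 (0.596 to 7.12). The ranges overlap in every pair of conditions, since some cells had FBL at or near 0. Its mean N went from 274 in control cells to 66.2 at 16 h of celecoxib, and was 380 under the combination. The scaffold protein NOP56 (ENSG00000101361, chr20:2652593-2658393) had a mean E-value of 5.12 ± 1.19 in control cells, 3.82 ± 1.21 (16 h) and 4.10 ± 1.04 (48 h) under paclitaxel, 3.73 ± 1.39 (2 h) and 3.43 ± 0.81 (16 h) under celecoxib, and 4.75 ± 1.46 under the combination. Its partner NOP58 (ENSG00000055044, chr2:202265736-202303661) gave 5.27 ± 1.15, 4.15 ± 1.48, 4.08 ± 1.13, 4.57 ± 1.12, 3.37 ± 0.90 and 5.52 ± 1.12 in the same order. NOP58 thus stood above control with both drugs while NOP56 stood below, each by less than the SD over cells. NOP58 exons overlap another annotated gene on the opposite strand over 229 bases. Smart-seq2 reads carry no strand, so that reads of this pair cannot be separated there.

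The pseudouridine synthase DKC1 (ENSG00000130826, chrX:154762742-154777689) varied widely from cell to cell. Its median E-value was 4.24 in control cells (0 to 6.10), 3.41 (0 to 5.50) and 2.87 (0 to 5.80) at 16 and 48 h of paclitaxel, 3.33 (0 to 6.24) and 2.70 (0 to 4.77) at 2 and 16 h of celecoxib, and 4.09 (0 to 7.53) with both drugs. Every condition held cells at 0, and the share of cells with DKC1 detected went from 93.5% in control to 83.0% at 48 h of paclitaxel. NOLC1 (ENSG00000166197, chr10:102152176-102163871), the chaperone of both snoRNP classes, moved less: 3.62 ± 1.25 on average in control cells, between 2.69 ± 0.90 (celecoxib, 16 h) and 3.12 ± 1.23 (paclitaxel, 48 h) under single drugs, and 3.71 ± 1.56 with both.

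Of the abundant nucleolar proteins, NPM1 gave the largest difference from control of any member, -2.42 in mean E-value at 16 h of celecoxib. NPM1 (ENSG00000181163, chr5:171387116-171411810) had a median E-value of 8.42 in control cells (5.51 to 9.62), 7.38 (5.91 to 9.59) at 16 h of paclitaxel, 7.11 (3.56 to 8.25) at 48 h of paclitaxel and 7.18 (4.90 to 8.83) at 2 h of celecoxib. At 16 h of celecoxib it was 5.84 (4.22 to 7.29), and with both drugs 8.45 (6.80 to 10.31). Cells below the control median numbered 53 of 56, 53 of 53, 62 of 63 and 61 of 61 under single drugs and 29 of 59 with both. Its mean N was 3385 in control cells, 613 at 16 h of celecoxib, and 3676 under the combination. NPM1 has 49 pseudogenes named after it in the annotation, and how far reads were shared with them was not tested. NCL (ENSG00000115053, chr2:231453531-231483641), the nucleolin gene, had mean E-values of 6.03 ± 0.94 in control cells, 5.04 ± 1.10 and 5.19 ± 0.79 under paclitaxel, 5.23 ± 0.93 and 4.63 ± 0.88 under celecoxib, and 6.13 ± 0.83 with both drugs.

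Among the large-subunit factors, NOP16 stood below control in every treatment, the combination included. NOP16 (ENSG00000048162, chr5:176383946-176388927) had a median E-value of 6.22 in control cells (0 to 7.75), 4.78 (0 to 8.11) and 4.69 (0 to 6.44) at 16 and 48 h of paclitaxel, 4.46 (0 to 6.76) and 4.41 (0 to 6.31) at 2 and 16 h of celecoxib, and 5.65 (0 to 8.72) with both drugs. Cells below the control median numbered 51 of 56, 50 of 53, 59 of 63 and 60 of 61 under single drugs and 40 of 59 with both. An exon of NOP16 overlaps ARL10 on the opposite strand over 215 bases, and Smart-seq2 reads carry no strand, so that reads of the pair cannot be separated there. GNL3 (ENSG00000163938, chr3:52681156-52694497), the nucleolar GTPase nucleostemin, had mean E-values of 4.68 ± 1.07 in control cells, 3.94 ± 1.07 and 3.87 ± 0.98 under paclitaxel, 3.65 ± 1.21 and 3.51 ± 0.80 under celecoxib, and 5.09 ± 1.22 with both drugs. RRS1 (ENSG00000179041, on chromosome 8, with 1 exon) lay between 0.29 ± 0.53 (celecoxib, 2 h) and 0.54 ± 0.69 (celecoxib, 16 h), and part of it overlaps another annotated gene on the same strand, so that reads there cannot be told apart.

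How these levels compare with the rest of the transcriptome depends on how strong a gene is. A gene was counted when its mean E-value differed from control by over log2 of 1.5 (0.58), and all comparisons with control share the same 46 control cells. At 16 h of paclitaxel 8 of the 10 members were lower past this limit, beside 37.3% of all genes tested, and at 48 h again 8, beside 26.6%. At 2 h of celecoxib 7 were lower, beside 25.7%, and at 16 h 9, beside 43.9%. No member was higher past the limit under a single drug, where 0.0932, 0.922, 1.12 and 0.383% of all genes were. A weak gene has no room to fall on this scale, so the shares were also taken over the 2309 genes with a control mean E-value above 3, as 9 of the members have. Of those genes 82.4, 68.7, 62.5 and 93.2% were lower in the same 4 comparisons, and of the 9 members above that level 88.9, 88.9, 77.8 and 100%, all but 1, 1, 2 and 0 of them. The members' median difference was -0.93, -0.93, -0.91 and -1.61, beside -0.95, -0.78, -0.73 and -1.39 for the 2309 genes and -0.41, -0.26, -0.26 and -0.48 for all genes. The member that never passed the limit was RRS1, the weakest. NOLC1 also missed it at 48 h of paclitaxel (-0.51) and 2 h of celecoxib (-0.56), and FBL at 16 h of paclitaxel (-0.39) and 2 h of celecoxib (-0.52).

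With both drugs the members stood near control while many other genes stood above it. None of the 10 was higher past the limit, beside 30.4% of all genes and 44.6% of the 2309 stronger ones, and 1, NOP16, was lower at -0.67, beside 1.76% of all genes. The members' median difference was 0.09, where that of all genes was 0.33 and that of the stronger genes 0.52. GNL3 (0.41), FBL (0.40), NOP58 (0.25), NPM1 (0.16), NCL (0.10), NOLC1 (0.08) and RRS1 (0.02) stood above control, and NOP56 (-0.37) and DKC1 (-0.37) below it together with NOP16. Each of these 10 differences was smaller than the SD of that gene over control cells, a spread that does not give the uncertainty of a mean. It does not set the combination apart. At 16 h of paclitaxel DKC1 (-0.99, control SD 1.42) and GNL3 (-0.74, SD 1.07) were counted as lower yet stayed below it. NCL (-0.99, SD 0.94), NPM1 (-0.86, SD 0.81) and NOP56 (-1.30, SD 1.19) exceeded it there. The combination cells lie in 2 blocks of 96 library indices, blocks 1 and 3. With both drugs the NOP16 difference was -0.46 in the cells of index block 1 alone and -0.94 in those of block 3. It also missed the limit as a ratio of linear means (-0.36) or a difference of medians (-0.57).

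**Figure D2:**
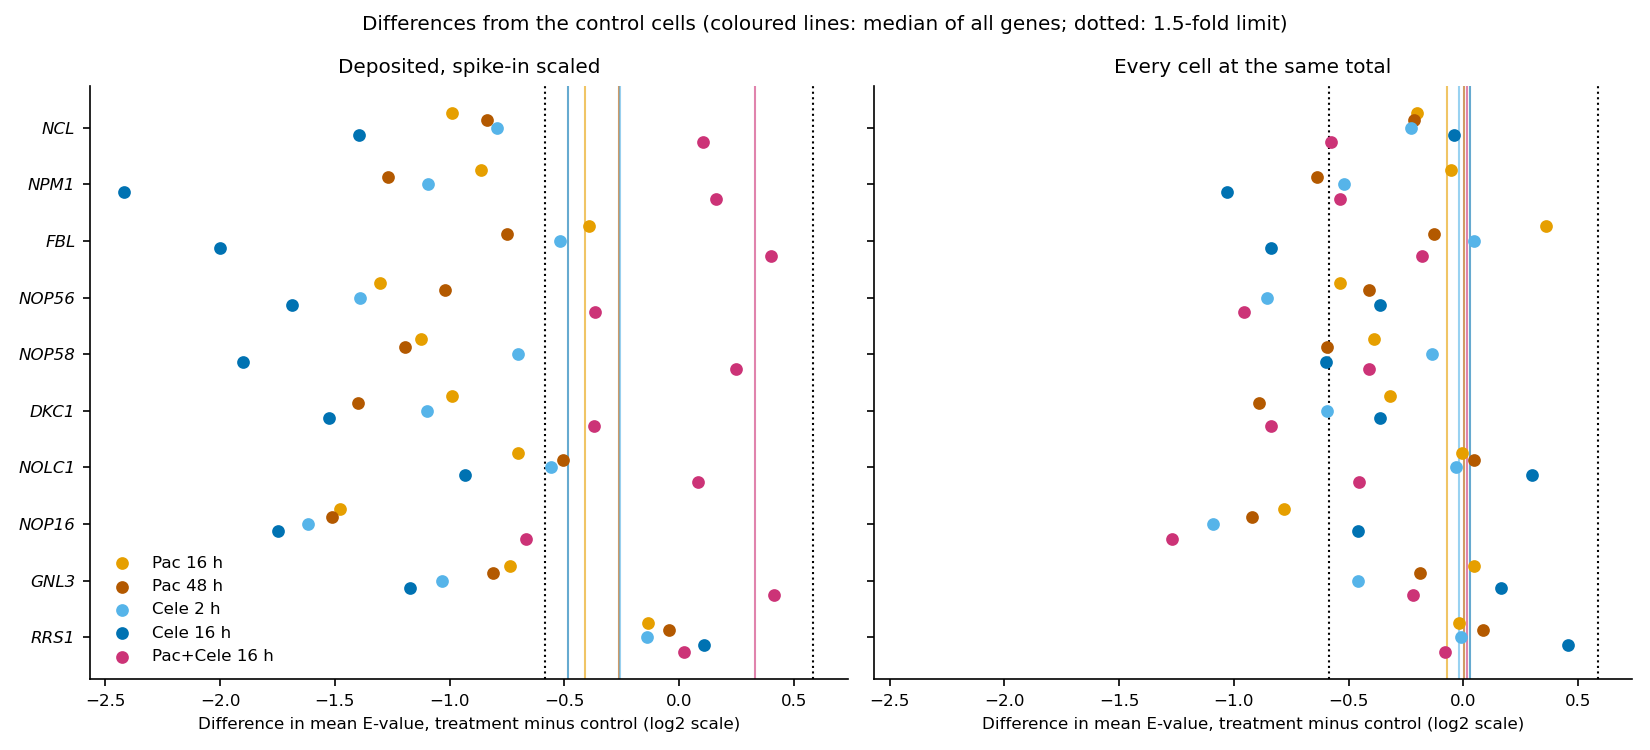
Difference in mean E-value (log2 scale, horizontal axis) between each treatment and the control cells for the 10 members, on the deposited scale (left) and with every cell at the same total (right). Coloured lines give the median of all genes for each treatment and dotted lines the 1.5-fold limit. With both drugs at the same total, NOP16 lies at -1.27, NOP56 at -0.96 and DKC1 at -0.84, left of the limit.

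Every cell was next brought to the same total. With both drugs all 10 differences were then negative, with a median of -0.50, beside 0.02 for all genes and -0.12 for the stronger genes. NOP16 (-1.27), NOP56 (-0.96) and DKC1 (-0.84) were lower past the limit, so 3 of 10, beside 5.8% of all genes and 15.5% of the stronger ones. Counted from the lowest of the 9655 genes tested, NOP16 ranked 43, NOP56 126 and DKC1 216. NCL stood just short of the limit at -0.58, followed by NPM1 (-0.54), NOLC1 (-0.45), NOP58 (-0.41), GNL3 (-0.22), FBL (-0.18) and RRS1 (-0.08). On this scale 54 of 59 combination cells lay below the control median for NOP16, 49 for NOP56, 44 for DKC1 and 56 for NPM1. With medians in place of means DKC1 missed the limit (-0.57) and NOLC1 passed it (-0.59).

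At 16 h of celecoxib other members were lowest. With equal totals NPM1 stood at -1.03 and ranked 176 from the lowest, FBL stood at -0.84 with rank 337, and NOP58 at -0.60. These 3 of 10 passed the limit, beside 7.95% of all genes and 23% of the stronger ones. For NPM1, 59 of 61 cells lay below the control median. As ratios of linear means FBL (-0.47) and NOP58 (-0.53) missed the limit, and with medians FBL did (-0.52). NOP16 (-0.46), NOP56 (-0.36), DKC1 (-0.36) and NCL (-0.04) did not pass the limit, and NOLC1 (0.30), GNL3 (0.16) and RRS1 (0.46) stood above control, although NOLC1 and GNL3 stood below it on the deposited scale (-0.93 and -1.17). After 2 h of celecoxib the order was different: NOP16 (-1.09), NOP56 (-0.85) and DKC1 (-0.59) were lower past the limit, 3 of 10 beside 8.12% of all genes and 21.6% of the stronger ones, and NPM1 stood at -0.52 and FBL at 0.05. With medians DKC1 missed the limit there (-0.29) and NPM1 passed it (-0.59).

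Under paclitaxel NOP16 was the member that stood lowest at both times. At 16 h it was the only member past the limit at the same total (-0.78), 1 of 10 beside 10% of all genes and 23.1% of the stronger ones. NPM1 (-0.05), NOLC1 (-0.01) and GNL3 (0.05) stood next to control, and FBL at 0.36. As a ratio of linear means NOP16 missed the limit (-0.44) in this comparison, and with medians FBL was higher past it (0.60). At 48 h NOP16 (-0.92), DKC1 (-0.89), NPM1 (-0.64) and NOP58 (-0.60) were lower past the limit, 4 of 10 beside 5.78% of all genes and 16.5% of the stronger ones. NOP58 passed it narrowly. No member was higher past the limit at the same total in the comparisons with control, where 1.4 and 3.28% of all genes (paclitaxel), 3.31 and 7.37% (celecoxib) and 5.96% (combination) were.

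The 10 transcripts were also added up as a share of each cell's total. The median cell gave them 0.439% of the summed N in control (0.167 to 0.709% over cells), 0.388% (0.179 to 0.894%) and 0.323% (0.0853 to 0.528%) at 16 and 48 h of paclitaxel, 0.312% (0.155 to 0.597%) and 0.300% (0.142 to 0.413%) at 2 and 16 h of celecoxib, and 0.273% (0.120 to 0.469%) with both drugs. The share was below the control median in 36 of 56, 49 of 53, 58 of 63, 61 of 61 and 57 of 59 cells in that order. NPM1 alone made up 0.221% of the total of the median control cell, so the sum follows NPM1 more than any other member. The lowest median share came from the condition with the highest total, and the next lowest from the condition with the lowest total.

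**Figure D3:**
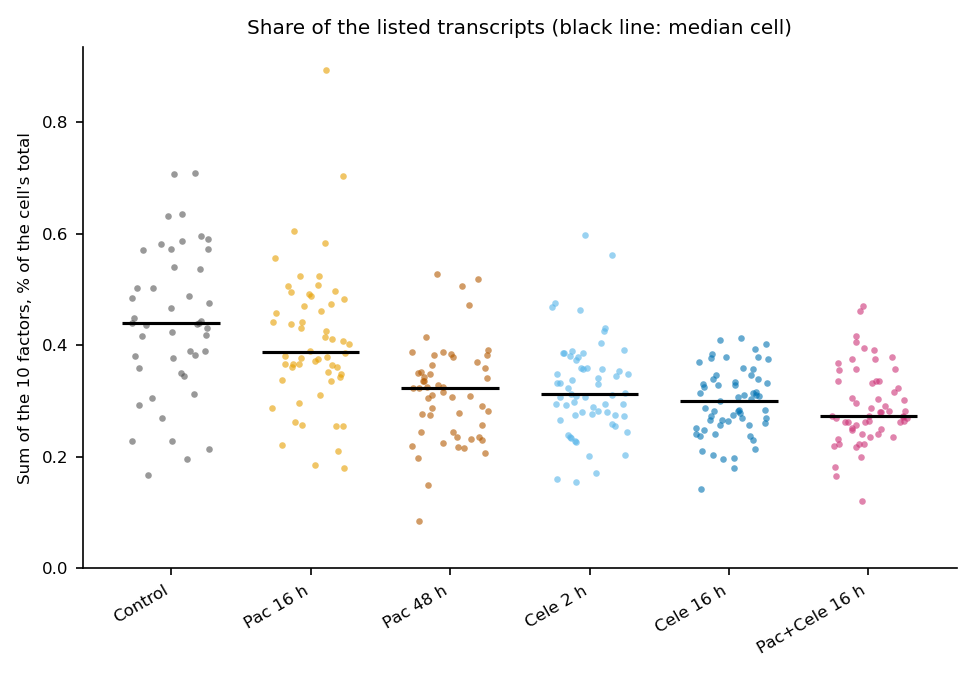
Summed N of the 10 members as a percentage of the summed N of all listed genes (vertical axis, from 0) in each cell of the 6 conditions. Each point is 1 cell and the black line the median cell, which falls from 0.439% in control to 0.273% with both drugs, with overlapping ranges.

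The combination was also set beside each single drug at 16 h. Against paclitaxel alone, 9 of 10 members were higher past the limit on the deposited scale, beside 62.5% of all genes and 96.5% of the stronger genes, from 0.62 for DKC1 to 1.38 for NOP58. At the same total no member was past it, beside 9.57% of all genes higher and 1.64% lower. Of the stronger genes 15.2% were higher and 4.89% lower. All 10 members stood below their level under paclitaxel alone, from -0.02 for NOP58 to -0.54 for FBL. Against celecoxib alone 9 of 10 were higher, beside 66% of all genes and 98.9% of the stronger ones, led by NPM1 (2.58), FBL (2.40) and NOP58 (2.15). At the same total FBL was higher past the limit (0.66), beside 5.03% of all genes and 11.9% of the stronger ones. NOP16 (-0.81), NOLC1 (-0.75) and NOP56 (-0.59) were lower, beside 4.39% of all genes and 8.19% of the stronger ones. Since both contrasts use the same combination cells, their values are not independent of each other.

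The later time of each single drug was set beside the earlier one, over intervals that differ between the drugs. From 2 to 16 h of celecoxib FBL (-1.48), NPM1 (-1.32), NOP58 (-1.20) and NCL (-0.60) were lower past the limit on the deposited scale, 4 of 10 beside 19.4% of all genes and 54.1% of the stronger ones. FBL stayed lower (-0.88) at the same total, beside 3.9% of all genes and 11.1% of the stronger ones. NOP16 (0.63) and GNL3 (0.62) were higher, beside 7.88% of all genes and 13.7% of the stronger ones. From 16 to 48 h of paclitaxel no member passed the limit on either scale, the lowest values being -0.41 for DKC1 and -0.40 for NPM1 on the deposited scale and -0.58 for NPM1 and -0.57 for DKC1 at the same total. In that comparison 0.352% of all genes were lower and 7.89% higher past the limit on the deposited scale, and 1.18% and 6.18% at the same total. Of the stronger genes 1.17% were lower and 13.9% higher on the deposited scale, and 3.68% and 9.31% at the same total.

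The authors' annotation assigns each cell to a control-like, a suppressed or an activated state, which was learned from the expression of these and other genes, so the following is a description. At 16 h of paclitaxel the members' median difference from control was -0.43 in the 23 control-like cells and -1.30 in the 31 suppressed cells, and at 48 h -0.60 in 28 and -1.24 in 25 cells. At 2 h of celecoxib it was -0.54 in 26 control-like and -1.23 in 33 suppressed cells. With equal totals the gap between the states' medians was small, -0.03 against -0.18, -0.32 against -0.32 and -0.24 against -0.31. Single members differed more. NOP16 had a wider gap, with a mean E-value at the same total of 5.27 in control-like and 3.99 in suppressed cells at 16 h of paclitaxel and 4.80 against 4.02 at 48 h. DKC1 gave 3.09 against 2.04 at 48 h of paclitaxel and 3.26 against 2.58 at 2 h of celecoxib. NOP58 gave 4.78 against 3.99 at 16 h of paclitaxel, and NOLC1 3.48 against 2.78 at 48 h. Some gaps ran the other way, such as NOP56 at 48 h of paclitaxel (4.08 against 4.27).

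Within a condition, a cell's member level went with its transcript total. The correlation of the mean E-value of the 10 members with the log2 total was r = 0.82 in control, 0.85 (16 h) and 0.70 (48 h) under paclitaxel, 0.70 (2 h) and 0.63 (16 h) under celecoxib, and 0.77 under the combination, over 46 to 63 cells that share a run and a scaling step. These values at the same total were 0.55, 0.43, 0.20, 0.11, -0.04 and 0.19. Between members, the 45 pairwise correlations over 338 cells, centred within condition, had a median of 0.37 on the deposited scale (0.15 to 0.55) and 0.15 at the same total (-0.04 to 0.32). The highest at the same total were NCL with NOP58 (0.32), and NOP16 with DKC1 (0.31) and with NOLC1 (0.31), and the lowest was NPM1 with DKC1 (-0.04). These are weak relations in sparse data and are given as description.

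**Figure D4:**
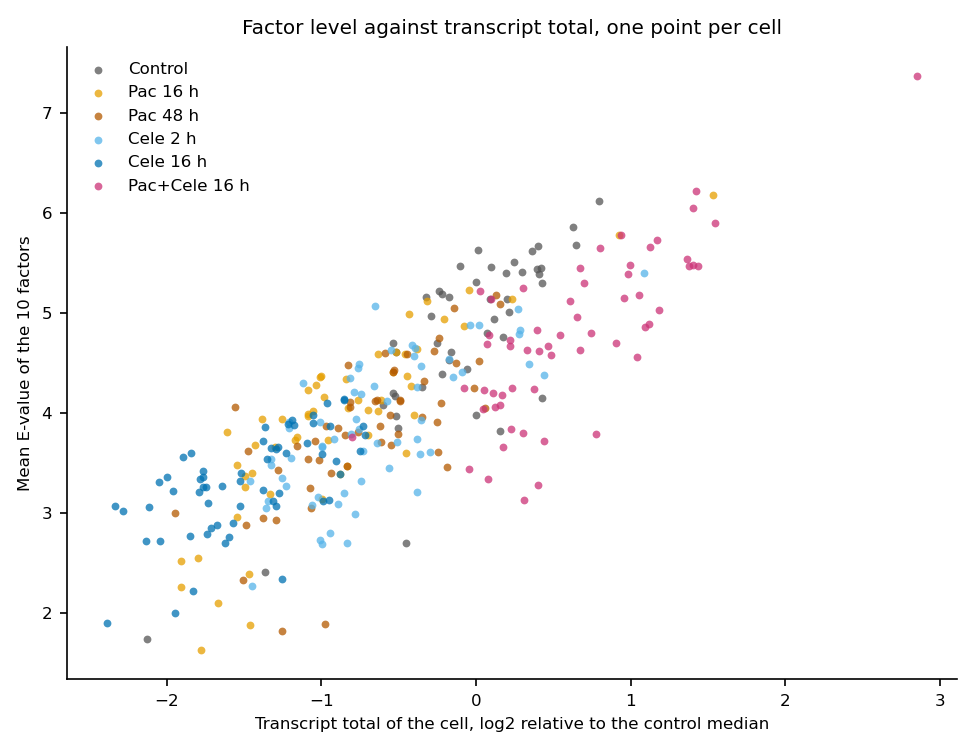
Mean E-value of the 10 members (vertical axis) against the transcript total of the cell (log2 relative to the control median, horizontal axis), 1 point per cell, coloured by condition. Cells of high total have high member levels in each condition, with r between 0.63 and 0.85, and many combination cells lie right of control cells of similar member level.

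Outside the pathway and marker lists, the 5 genes whose level went most closely with the members' mean at the same total, among 6420 genes detected in at least 50% of cells, were SNRPD1 (r = 0.54), RPS16 (0.53), RPL35 (0.49), RAN (0.48) and PA2G4 (0.47). SNRPD1 encodes a core protein of spliceosomal particles, RAN the GTPase of nuclear transport, and PA2G4 a growth-regulated protein also found in the nucleolus, while RPS16 and RPL35 are ribosomal proteins. With both drugs SNRPD1 stood at -0.75, RAN at -0.76, PA2G4 at -0.69, RPL35 at -0.48 and RPS16 at -0.42 at the same total, and at 16 h of celecoxib SNRPD1 stood at -1.11.

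Other genes of the pathway were counted from lists of snoRNP proteins, assembly factors, the small-subunit processome, large-subunit assembly and RNA polymerase I, 127 genes besides the members. On the deposited scale 91 (16 h) and 88 (48 h) of them were lower past the limit under paclitaxel, and 77 (2 h) and 98 (16 h) under celecoxib. With both drugs 9 were lower, 7.09% of the list beside 1.76% of all genes, and 10 were higher, where 30.4% of all genes were. Of the stronger genes 3.46% were lower and 44.6% higher with both drugs. The lower ones made up 71.7, 69.3, 60.6 and 77.2% of the list under single drugs, beside 37.3, 26.6, 25.7 and 43.9% of all genes and 82.4, 68.7, 62.5 and 93.2% of the stronger genes. Their median difference was -0.93, -0.79, -0.69, -1.12 and 0.10 in that order, beside -0.93, -0.93, -0.91, -1.61 and 0.09 for the members. With equal totals 40, 32, 30, 18 and 28 were lower and 0, 0, 1, 2 and 1 higher, with medians of -0.33, -0.35, -0.27, -0.18 and -0.35. The lower ones were 31.5, 25.2, 23.6, 14.2 and 22.0% of the list, beside 10, 5.78, 8.12, 7.95 and 5.8% of all genes and 23.1, 16.5, 21.6, 23 and 15.5% of the stronger genes. Of all genes 1.4, 3.28, 3.31, 7.37 and 5.96% were higher with equal totals.

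By role, with both drugs at the same total, SNU13, the remaining protein of the box C/D core, stood at -0.43. Of the box H/ACA partners of DKC1, NHP2 stood at -0.58, GAR1 at -0.47 and NOP10 at 0.18. In the list of 14 snoRNP assembly factors and nucleolar chaperones, which include 3 members, 1 was lower past the limit, TCOF1 (-0.66), the treacle protein of rDNA transcription, which stood lowest, and ZNHIT6 (0.15) stood highest. RUVBL2 stood at -0.48 there and PIH1D1 at -0.08, and both of these assembly factors of box C/D particles stood lower at 16 h of celecoxib (-1.07 and -1.16), as FBL did. With both drugs at the same total 5.8% of all genes and 15.5% of the stronger ones were lower past the limit. Of 49 processome genes 13 were lower, with a median of -0.36. RRP7A (-1.34) and RRP9 (-1.24), a U3 snoRNA-binding protein, stood lowest, and PDCD11 (0.10) and FCF1 (0.07) highest. Of 52 large-subunit genes, which include 3 members, 13 were lower and 1 was higher, with a median of -0.35. Apart from the members, EBNA1BP2 (-1.15) and GRWD1 (-0.95) stood lowest there and RSL24D1 (0.64) and NMD3 (0.48), the export adaptor of the 60S subunit, highest. Of 14 genes of the RNA polymerase I machinery 2 were lower, the polymerase subunits CD3EAP at -0.84 and TWISTNB at -0.63, and TAF1B (0.27) and ZNRD1 (0.21) stood highest.

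The proteins that these factors assemble gave other values. The 84 cytosolic ribosomal protein genes had a median difference with both drugs of 0.62 on the deposited scale, with 48 higher past the limit, beside 30.4% of all genes and 44.6% of the stronger ones. They stood at -0.06 at the same total, with 4 lower and 1 higher, beside 5.8 and 5.96% of all genes. The 10 members stood at 0.09 on the deposited scale and at -0.50 at the same total. At 16 h of paclitaxel the ribosomal proteins stood at 0.29 and the members at -0.13 at the same total, and at 16 h of celecoxib at -0.27 and -0.36. The 77 mitochondrial ribosomal protein genes, which are not built in the nucleolus, had a median of 0.33 with both drugs on the deposited scale. On that scale 21 of them were higher and 1 lower past the limit, beside 30.4 and 1.76% of all genes. Their median was -0.32 at the same total, with 15 lower and 1 higher. There 5.8% of all genes and 15.5% of the stronger ones were lower, and 5.96 and 7.06% higher. These medians are set side by side without a test.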

How the data were processed

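Single-cell RNA-seq values of 338 of 372 labelled A2780 cells in 6 conditions were used. The labels' sample names and extraction text give the treatment times, and these were used. A separate treatment text that gives 48 h for all treatments was not. After Trim Galore, the authors used RSEM 1.3.0 (with Bowtie2) to estimate TPM against hg38 transcripts of GENCODE version 28 plus 3 spike-ins. They scaled each cell to its most abundant spike-in and removed cells with few housekeeping transcripts. Genes had to be detected in more than 30% of cells in 1 or more conditions. Deposited were log2 E-values, log2(N/10 + 1), which correspond to a pseudocount of 10 normalized TPM. The spike-in scaling makes totals comparable only as far as every well received the same amount of spike-in RNA, and doublets could not be called without counts.

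N was recovered from E, and differences are those of mean E-values over cells. At the same total, linear values were rescaled to the median cell's total over the listed genes. With 1 run per condition no test was made. A change counted past 1.5-fold. The lists (box C/D and box H/ACA cores, snoRNP assembly and nucleolar chaperones, small-subunit processome, large-subunit assembly, RNA polymerase I machinery, cytosolic and mitochondrial ribosomal proteins, and cell type markers) and the members were chosen with earlier results of these data known. Named were all members, the 2 highest and 2 lowest genes per list outside the members with the combination at the same total, with a detection share of 30% or more in both groups (fewer where a list held fewer, and none of the ribosomal protein lists), and the 5 genes most like the members outside the pathway and marker lists, with ribosomal proteins kept as candidates. Alternatives were other scalings, linear means, medians, a pseudocount of 1, a 2-fold limit, single index blocks and leaving out wells noted as 0 or debris. The steps were tried on resampled control cells in which some genes were changed by more than the 1.5-fold limit. No shift in the cells' totals was simulated, and genes as weak as RRS1 were not changed. The trial therefore does not cover calls near the limit between conditions of unlike total. Gene positions are from GENCODE version 44 on hg38, promoters from RefSeq (GRCh38.p14). Versions used were numpy 2.4.6, scipy 1.17.1, pandas 2.3.3 and matplotlib 3.10.9 under Python 3.11.15.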

Additional observations from a re-analysis of the deposited data

How the results depend on the processing

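The scaling decided most of what changed. At the same total per cell the members' median difference from control was -0.13, -0.31, -0.34 and -0.36 (paclitaxel 16 and 48 h, celecoxib 2 and 16 h), and over all but the 50 most abundant genes -0.12, -0.30, -0.34 and -0.38. The members lower past the limit numbered 1, 4, 3 and 3 in these comparisons and 3 with both drugs under either rescaling. Some members lower past the limit on the deposited scale changed sign. GNL3 did so at 16 h of paclitaxel (0.047, or 0.057 without the 50 most abundant genes) and 16 h of celecoxib (0.16 and 0.15). NOLC1 did so at 16 h of celecoxib (0.30 and 0.28) and, without the 50 most abundant genes, at 16 h of paclitaxel (0.0018). Members short of the limit changed sign too at the same total per cell. FBL did at 16 h of paclitaxel (0.36) and 2 h of celecoxib (0.05), and NOLC1 (0.05) and RRS1 (0.09) at 48 h of paclitaxel. With both drugs NCL, NPM1, FBL, NOP58, NOLC1, GNL3 and RRS1 went from above control to below it.
On the deposited scale a 2-fold limit left 3 and 5 members at 16 and 48 h of paclitaxel and 0 with both drugs. With both drugs the count was also 0 with linear means, with medians and in index block 1 alone, and 2 with a pseudocount of 1. At the same total, linear means left 0, 2 and 1 members lower at 16 and 48 h of paclitaxel and 16 h of celecoxib. A pseudocount of 1 gave 5 with both drugs at the same total. The share of all genes past each altered rule is not given here. These counts therefore show only how the members' calls move, not whether they are unusual for genes of this level. NOP16 with both drugs at the same total ranged from -1.13 to -1.50. These alternatives at the same total, the comparison with stronger genes and the median without RRS1 were chosen after seeing the data. Without RRS1 no median of the members moved by more than 1 SD over control cells. Leaving out 1 gene only shifts a median towards a neighbouring value, and that SD is a wide spread over single cells. The check could therefore hardly have failed, and it does not show how stable the medians are. No paired analysis was possible because each condition is 1 run and its replicate numbers only count cells. No read counts are known, so a low or absent value such as those of RRS1 has no counting interval.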
